A study of Mus musculus with 80 samples.

Results

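The quadriceps of R6/2 mice treated with ACVR2B/Fc was compared with that of untreated wild type (WT) mice, to find which transcripts remain abnormal and which become abnormal under treatment. The comparison rests on 19 of the 80 libraries of the series, taken by their labels: 10 of R6/2 ACVR2B/Fc quadriceps and 9 of WT vehicle quadriceps. The quadriceps library of mouse 93, a WT vehicle mouse, was left out. R6/2 mice carry a transgene for the first exon of human huntingtin with an expanded CAG repeat (CAG200 in the labels) under the human promoter, so they model Huntington's disease with a fragment of the protein. All mice were females of the C57BL6xCBA background and 12 weeks old. ACVR2B/Fc is the ligand-binding part of the activin receptor type IIB joined to an antibody Fc, and was given under the skin each week at 10 mg/kg from 5 to 11 weeks of age, with PBS as vehicle. R6/2 vehicle (n = 10) and WT ACVR2B/Fc (n = 10) quadriceps entered the same fit, and the tibialis anterior (TA) of the same mice served as the second muscle. Each library of one muscle comes from another mouse.

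Myostatin and the activins bind ACVR2B on the muscle fibre, and the receptor complex then phosphorylates SMAD2 and SMAD3, which restrain fibre growth. A soluble receptor takes these ligands up before they reach the fibre. It can also bind other ligands of the family, including some bone morphogenetic proteins (BMPs), which signal through other SMADs. Mouse quadriceps is made largely of fast fibres, which run on glycolysis and on rapid calcium release and uptake.

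Levels are given in CPM, the counts of a gene brought to a common library total after scaling by TMM, a factor set from the bulk of the genes. The deposited counts summed to 39.6 to 47.7 M per library in R6/2 ACVR2B/Fc and 37.2 to 49.7 M in WT vehicle. The 10 most abundant genes took 25.2% ± 1.74 (SD, n = 10) of the counts in treated R6/2 and 29.6% ± 1.26 (SD, n = 9) in WT vehicle (exact two-sided permutation test over 92378 assignments, p = 7.58e-05), and the TMM factors lay between 1.09 and 1.26 in the former and between 0.80 and 0.88 in the latter. With TMM the median log2 fold change of all 19702 tested genes was 0.04. On FPKM, which is divided by the library total, that median was 0.21 with a pseudocount of 1, and 94.4% of the called genes were higher against 54.9% with TMM. Directions below are relative to the TMM scale, and FPKM counts are given beside the lists described whose direction differs there. Sums of transcripts of other tissues are given here in CPM without the TMM factor. Liver transcripts summed to 1082 and 1361 CPM in R6/2 ACVR2B/Fc replicates 2 and 8 and to 14.0 to 109 CPM in the other 8 libraries of that group, against 16.8 to 79.8 CPM in WT vehicle. Pituitary transcripts summed to 11.9 CPM in R6/2 ACVR2B/Fc replicate 10, and hair follicle and skin transcripts to 24.5 CPM in WT vehicle replicate 6. Results are therefore also given without these 4 libraries. The fast fibre list, which marks the labelled tissue, summed to 59184 to 92105 CPM in treated R6/2. In whole muscle, fewer cells of a type and less RNA per cell cannot be told apart.

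Genes with an adjusted p under 0.05 are described as called (edgeR quasi-likelihood test, Benjamini-Hochberg over all tested genes). Treated R6/2 quadriceps differed from WT vehicle in 8103 genes (41.1% of those tested), 4450 higher (22.6%) and 3653 lower (18.5%). The fold was over 1.5 in 3422 of them and over 2 in 1807. Of the 8103, 1615 had libraries that did not overlap between the groups (8.2% of all tested genes). Of all tested genes, 8451 had a 95% interval of the fold change that lay wholly within 1.5-fold of WT vehicle. The 2 sets overlap, since 3122 of the 8103 called genes had such an interval.

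Genes were sorted by their calls in treated and in untreated R6/2 against the same WT vehicle libraries. Untreated R6/2 differed from WT vehicle in 8083 genes (41%), and 899 genes (4.56%) differed between treated and untreated R6/2, which is the test of the difference between these comparisons. Because treated and untreated R6/2 were set against the same controls, the shared counts are a description. In all, 6383 genes remained abnormal, called in both in the same direction, 3400 higher and 2983 lower. A further 1713 genes were called under treatment only, and for 365 of them the response to treatment itself was called, 270 higher and 95 lower than WT vehicle. Treatment moved 86 of the remaining genes further from WT and 176 toward WT. The untreated R6/2 libraries enter both their fold change against WT vehicle and the response, with opposite signs. Error in these libraries can thus appear as movement toward WT, and the 86 and 176 are a description too. Another 1693 genes were no longer called, of which 1137 had a 95% interval within 1.5-fold of WT vehicle and 200 a called response. Only 7 genes were called in opposite directions in untreated and treated R6/2.

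The classes that need a called response were small and changed with the 4 libraries and with the covariates. Without the 4 libraries, 390 genes responded to treatment in R6/2 in place of 899. Genes becoming abnormal with a called response then numbered 120, of which 106 were among the 365, and genes moved further numbered 53, of which 39 were among the 86. The labels give lane numbers, which come round again over the library numbers. When the lane number and a term for the first or second of these rounds, which no label gives and which was inferred from the library numbers, entered the fit, those counts were 86 and 14. The class of genes remaining abnormal held 6246 genes without the 4 libraries, 5816 of them the same genes.

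**Figure D1:**
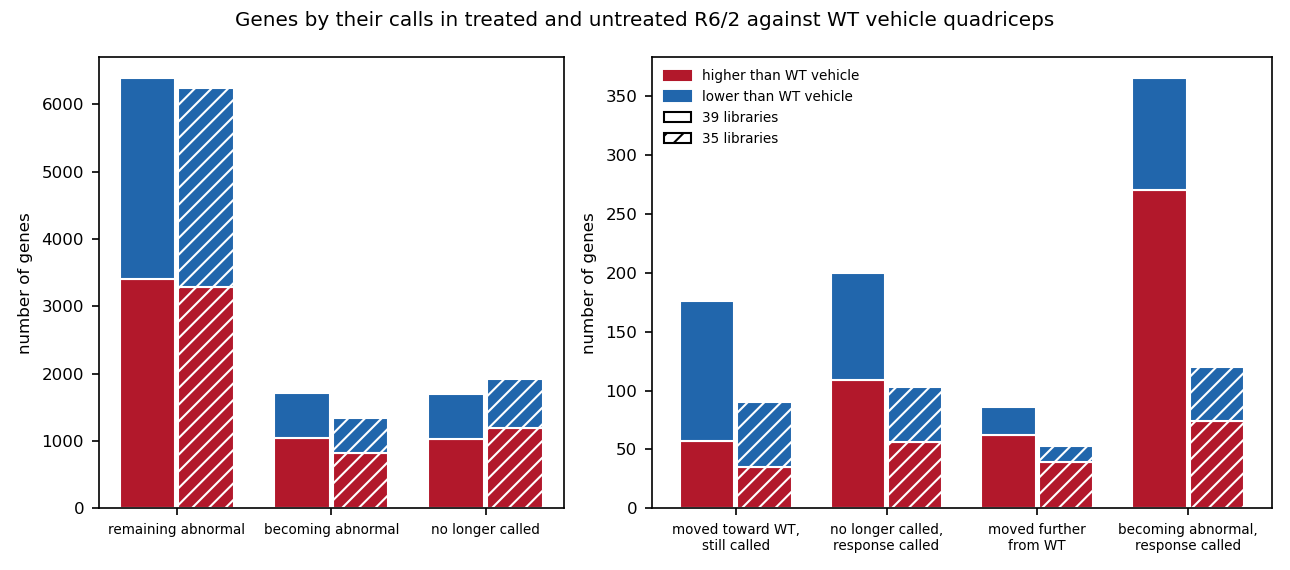
Number of genes (vertical axis) in each class of quadriceps genes, by calls in treated and untreated R6/2 against WT vehicle; red is higher and blue lower than WT vehicle (for the genes no longer called, in untreated R6/2), solid bars use all 39 libraries of the fit and hatched bars 35 libraries, without the 4 that hold transcripts of another tissue. The left panel shows 6383 genes remaining abnormal, 1713 becoming abnormal and 1693 no longer called, and the right panel shows that becoming abnormal with a called response fell from 365 to 120 genes.

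Transcripts of the contractile apparatus of fast fibres remained low. All 15 genes of the fast fibre list were lower in treated R6/2 than in WT vehicle, with a median log2 fold change of -1.33 against 0.04 for all genes, and in all 15 the libraries of both groups did not overlap. In untreated R6/2 the median was -1.73 with 15 lower, and 9 of the 15 were higher in treated than in untreated R6/2. All 15 were lower with FPKM as well. Actn3 (GRCm38 chr19:4861216-4877909, minus strand), the actinin that anchors actin at the Z-disc of fast fibres, had 5148 to 9040 CPM (median 6456) in WT vehicle and 1896 to 3404 CPM (median 2445) in treated R6/2. Every treated library lay under every WT vehicle library, and the untreated R6/2 median of 1603 CPM lay lower still. The log2 fold change against WT vehicle was -1.33 ± 0.11 (SE; adjusted p = 7.21e-13) and the response to treatment 0.65 ± 0.10 (adjusted p = 0.000119).

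Pvalb, the calcium buffer parvalbumin that speeds relaxation, had 8008 to 14758 CPM (median 10496) in WT vehicle and 2113 to 4510 CPM (median 3181) in treated R6/2. The groups did not overlap, and the fold change was -1.78 ± 0.11 on the log2 scale (adjusted p = 4.72e-16). Its response to treatment, 0.34 ± 0.11, missed the threshold (adjusted p = 0.0546). Among the other members were the fast troponins Tnnt3 (-1.32 ± 0.07) and Tnnc2 (-0.70 ± 0.09), tropomyosin Tpm1 (-1.52 ± 0.10), fast myosin-binding protein C (Mybpc2, -1.62 ± 0.11), the fast myosin heavy chain Myh1 (-0.82 ± 0.12) and the calcium store protein Casq1 (-1.47 ± 0.10), all log2 fold changes with SE. Of these, Tnnt3, Tnnc2 and Tpm1 were higher in treated than in untreated R6/2, and Mybpc2, Myh1 and Casq1 were not called in that comparison.

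Transcripts of glycolysis and glycogen metabolism remained low. In the glycolysis and glycogen list 22 of 24 genes were lower and none higher, with a median of -0.95, and 19 did not overlap between the groups. Pgam2, the muscle phosphoglycerate mutase, had 978 to 1402 CPM (median 1155) in WT vehicle and 316 to 516 CPM (median 359) in treated R6/2. No treated library reached the WT vehicle range, and the fold change was -1.56 ± 0.09 (adjusted p = 2.3e-17). The glycolytic enzymes Pfkm (-1.50 ± 0.09), Eno3 (-1.27 ± 0.08), Ldha (-1.29 ± 0.08) and the phosphoglucomutase Pgm1 (-1.38 ± 0.08) were lower too, while glycogen synthase Gys1 had a log2 fold change of -0.09 ± 0.08 with an interval of -0.25 to 0.06 (adjusted p = 0.357), but was called higher on FPKM (0.40, limma adjusted p = 4.99e-05). Pgm1, Ldha and the aldolase Aldoa were the 3 members that were higher in treated than in untreated R6/2.

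Ckm, the creatine kinase that rebuilds ATP from phosphocreatine, had 8638 to 15494 CPM (median 11563) in WT vehicle and 3400 to 5843 CPM (median 4365) in treated R6/2. All 10 treated libraries lay below the WT vehicle range. Its fold change was -1.33 ± 0.10 (adjusted p = 9.9e-14) and the response to treatment 0.40 ± 0.10 (adjusted p = 0.00921). Of the AMP deaminases, which convert AMP to IMP, Ampd1 was lower (-1.87 ± 0.11) and Ampd3 higher (1.33 ± 0.14).

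In the respiratory chain and ATP synthase list 48 of 57 genes were lower and none higher with TMM, with a median of -0.35, but on the FPKM scale 28 were higher and 1 lower, so its direction depends on the scaling. Its median differed from that of all genes by -0.39 with TMM. On FPKM that difference was -0.06 with a pseudocount of 1 and -0.25 with a pseudocount of 0.1. Sdhb, a subunit of succinate dehydrogenase, had 329.9 to 413 CPM (median 365) in WT vehicle and 210.0 to 296 CPM (median 273) in treated R6/2. These ranges did not overlap, at a fold change of -0.51 ± 0.06 (adjusted p = 1.6e-08), and Uqcrc2 of the third respiratory complex stood at -0.52 ± 0.06. The proteasome list turned in the same way, with 17 of 32 lower under TMM and 30 higher on FPKM. So did the citrate cycle list, with 14 of 18 lower and none higher under TMM, and 12 higher and 1 lower on FPKM. Of 25 genes of fatty acid uptake and oxidation 2 were higher and 5 lower under TMM (median -0.08), a smaller share called than the 41.1% of all genes. On FPKM 18 of these 25 were higher and 1 lower.

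Excitation-contraction coupling joins the voltage change at the surface to calcium release inside the fibre. Of its 19 listed genes 16 were lower and none higher (median -0.59), although on FPKM 7 were higher and 9 lower. The voltage sensor Cacna1s (-1.07 ± 0.08) and the store protein Hrc (-0.90 ± 0.07) did not overlap between the groups. Neither response to treatment was called (adjusted p = 0.798 and 0.908). Of the ATP-sensitive potassium channel, the pore Kcnj11 (-1.24 ± 0.14) and the sulfonylurea receptor Abcc8 (-3.03 ± 0.28) were low, without a called response. Other subunits of this channel are not described here.

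The titin-linked and Z-disc list had 17 of 21 genes lower and none higher, with a median of -0.82 in treated and -0.70 in untreated R6/2. On FPKM 11 were lower and 3 higher. None of its genes was higher in treated than in untreated R6/2, and 3 were lower. Ttn, the spring protein that runs from the Z-disc to the middle of the sarcomere, had 14266 to 20151 CPM (median 17891) in WT vehicle and 6690 to 10204 CPM (median 8536) in treated R6/2. No treated library reached the WT vehicle range, and the fold change was -1.06 ± 0.08 (adjusted p = 2.16e-14), with a response of 0.12 ± 0.07 (adjusted p = 0.437). The Z-disc protein Ldb3 (-1.04 ± 0.06), the actin-binding Xirp2 (-1.42 ± 0.08) and the titin-binding Ankrd23 (-1.63 ± 0.12) were lower, and the muscle LIM protein Csrp3 was called (-1.43 ± 0.40, adjusted p = 0.00367) but not without the 4 libraries (adjusted p = 0.134). Flnc, the muscle filamin, and Smpx, a small protein of the costamere, were not called (-0.07 ± 0.12 and 0.09 ± 0.08).

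Some promoters of this list held CTA and TAG with 4 bases of any kind between them. These letters include the core bound by MEF2 factors, which activate muscle genes, but are wider, since that core has only A or T in the middle. In RefSeq promoters of GRCm38.p6, which run from 250 bases before to 50 after the start, 6 of the 15 list genes with an entry (40%) held these letters on either strand, against 4.23% of 27025 genes in the table and 3.82% of the tested genes. They were Capn3, Flnc, Ldb3, Smpx, Ttn and Xirp2, so the letters stood in front of genes that fell and of genes that were not called. Of 13 strings searched, this one and the one of the interferon genes are shown, chosen after their shares were seen. Since the letters read the same on both strands in their fixed bases, each match counts once. The stretches below hold 100 bases each from the part before the start, on the strand of the gene, and capitals mark the letters.
Ttn (chr2:76982659-76982758, minus strand, first capital 166 bases before the start): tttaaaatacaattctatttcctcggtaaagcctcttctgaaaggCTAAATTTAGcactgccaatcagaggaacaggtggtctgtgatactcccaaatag
Xirp2 (chr2:67445883-67445982, plus strand, first capital 74 bases before the start): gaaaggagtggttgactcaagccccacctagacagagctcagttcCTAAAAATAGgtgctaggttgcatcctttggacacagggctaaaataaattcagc
Ldb3 (chr14:34588608-34588707, minus strand, first capital 55 bases before the start): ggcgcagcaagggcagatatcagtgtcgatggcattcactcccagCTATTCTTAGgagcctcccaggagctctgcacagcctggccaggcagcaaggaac
Flnc (chr6:29432955-29433054, plus strand, first capital 153 bases before the start): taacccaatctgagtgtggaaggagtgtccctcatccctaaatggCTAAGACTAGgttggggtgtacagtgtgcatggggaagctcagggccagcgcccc
Smpx (chrX:157698802-157698901, plus strand, first capital 126 bases before the start): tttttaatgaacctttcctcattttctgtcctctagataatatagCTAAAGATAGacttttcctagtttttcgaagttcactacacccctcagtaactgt
Of these 5, Ttn and Xirp2 have only A or T between CTA and TAG, and Ldb3, Flnc and Smpx have a G or C there. A match is a description of letters and shows no binding. Beside them, Ttn, Xirp2 and Ldb3 were lower than in WT vehicle at -1.06, -1.42 and -1.04 on the log2 scale, whereas Flnc and Smpx stood at -0.07 and 0.09.

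**Figure D2:**
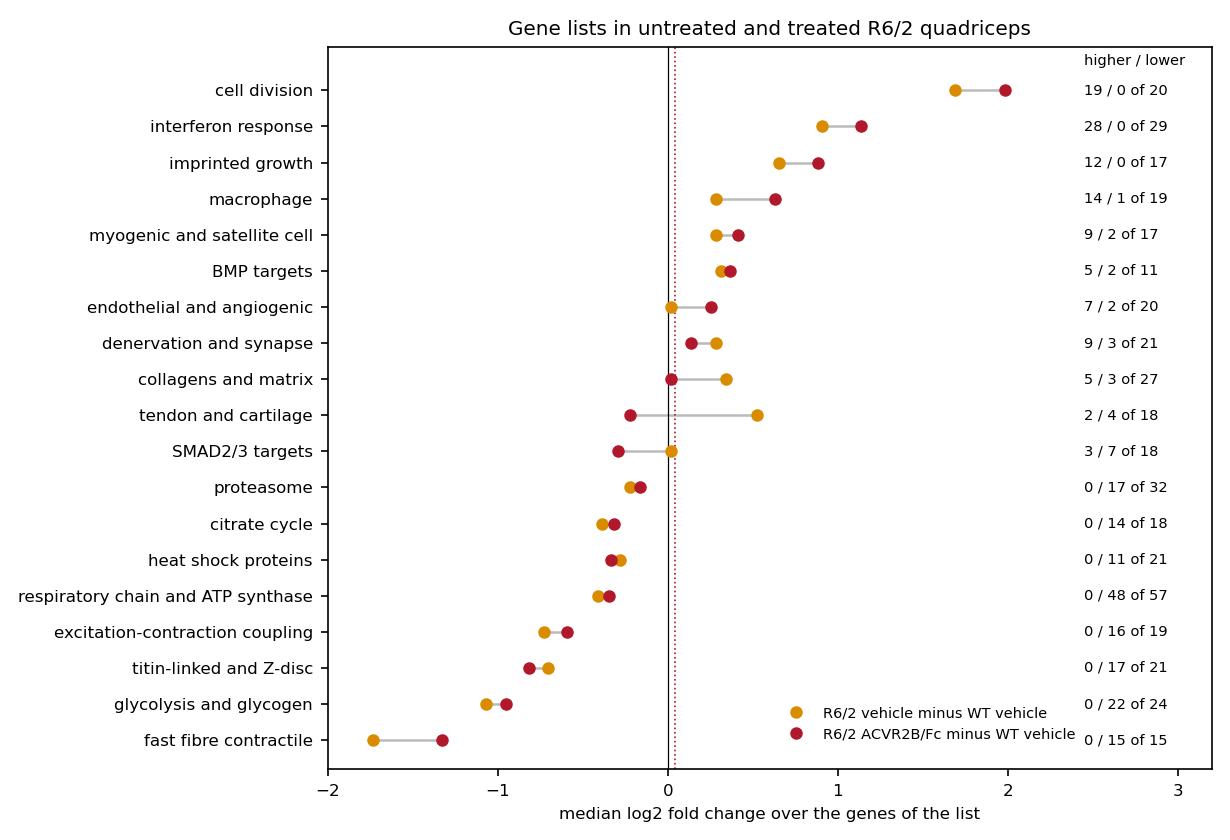
Median log2 fold change over the tested genes of each of the 19 lists drawn (horizontal axis), for R6/2 vehicle (orange) and R6/2 ACVR2B/Fc (red) against the same WT vehicle quadriceps libraries, with the dotted line at 0.04, the median of all genes under treatment. The numbers at the right count the genes called higher and lower in treated R6/2; of the lists drawn, fast fibre lies lowest at -1.33 and cell division highest at 1.98.

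Large falls also remained in single genes. 2310065F04Rik (GRCm38 chr11:67112461-67120080, minus strand, ENSMUSG00000087410), a gene with no named function in the files, had 91.9 to 213 CPM (median 157.6) in WT vehicle and 4 to 9.46 CPM (median 5.68) in treated R6/2. Its treated libraries lay far below the WT vehicle range, and above the untreated R6/2 median of 3.26 CPM. Against WT vehicle the fold change was -4.69 ± 0.20 (adjusted p = 7.77e-21) and the response 0.97 ± 0.18 (adjusted p = 0.000759). Fgfbp1 (GRCm38 chr5:43978858-43981779, minus strand), a carrier of fibroblast growth factors that in mouse muscle helps maintain the neuromuscular junction, had 6.99 to 15.2 CPM (median 10.2) in WT vehicle and 0.12 to 0.445 CPM (median 0.167) in treated R6/2. None of the treated libraries came near the WT vehicle range, at a fold change of -5.60 ± 0.29 (adjusted p = 5.98e-18) and a response of 0.40 ± 0.34 (adjusted p = 0.632). The potassium channel beta subunit Kcnab1 (-3.38 ± 0.21), the secreted Dkk3 (-3.24 ± 0.25) and the calcium channel subunit Cacna2d4 (-3.07 ± 0.36) were also low with no called response in R6/2, and Dkk3 fell in WT mice given ACVR2B/Fc (-1.55 ± 0.24, adjusted p = 9.62e-05). For Dkk3 the difference between the responses of R6/2 and WT mice was not called (adjusted p = 0.223).

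Polyamine genes were split. Smox, which oxidises spermine, had 35 to 84.6 CPM (median 71.4) in WT vehicle and 10.3 to 25 CPM (median 13.6) in treated R6/2. The groups did not overlap (log2 fold change -2.20 ± 0.19, adjusted p = 4.83e-12), and Odc1, the first enzyme of polyamine synthesis, was lower as well (-0.65 ± 0.10). Of the 10 listed genes 3 were higher and 4 lower, against 22.6% and 18.5% of all tested genes, and on FPKM 6 were higher and 1 lower.

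Genes of the neuromuscular junction and of denervated fibres remained high in part: 9 of 21 were higher and 3 lower, and on FPKM 14 were higher and 1 lower. Over all tested genes 22.6% were higher and 18.5% lower with TMM. The list median of 0.14 lay close to the 0.04 of all genes. Musk, the receptor kinase that clusters acetylcholine receptors, had 3.97 to 16.2 CPM (median 5.56) in WT vehicle and 22.3 to 37.9 CPM (median 27.6) in treated R6/2. Every treated library exceeded the WT vehicle range, whose highest value came from replicate 6, and the fold change was 2.06 ± 0.19 (adjusted p = 2.36e-11). Runx1 (1.90 ± 0.12), a transcription factor that rises after denervation, the receptor subunit Chrna1 (1.2 ± 0.10) and the agrin receptor Lrp4 (0.99 ± 0.10) were higher, and no response to treatment was called among these 4 (adjusted p 0.342 for Runx1, 0.353 for Chrna1, 0.383 for Lrp4 and 0.739 for Musk).

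**Figure D3:**
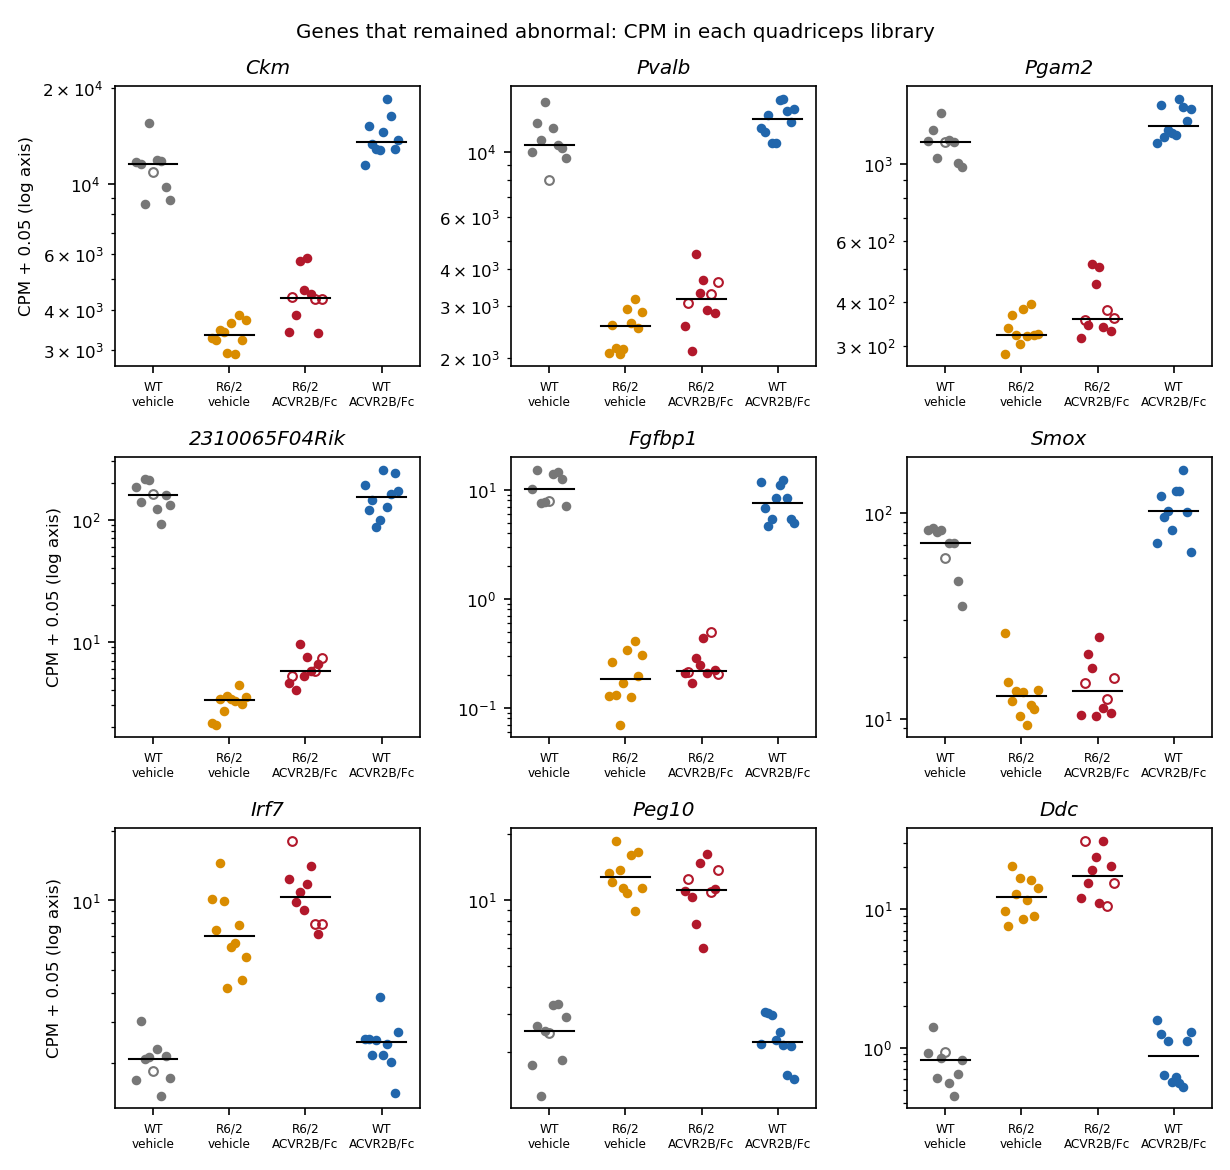
CPM in each quadriceps library (log axis) for 9 genes that remained abnormal, by group; each point is a library, the bar is the group median and open points are the 4 libraries with transcripts of another tissue. In Ckm, Pvalb, Pgam2, 2310065F04Rik, Fgfbp1 and Smox all treated R6/2 libraries lie under the WT vehicle libraries, and in Irf7, Peg10 and Ddc all lie above them.

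Interferon-response genes remained higher. Of 29 listed genes 28 were higher and none lower, with a median of 1.13 in treated and 0.90 in untreated R6/2, and 18 did not overlap with WT vehicle. Irf7 (GRCm38 chr7:141262706-141266481, minus strand), the factor that amplifies interferon production, had 1.4 to 2.99 CPM (median 2.03) in WT vehicle and 7.09 to 18 CPM (median 10.3) in treated R6/2. All 10 treated libraries exceeded the WT vehicle range, at a fold change of 2.44 ± 0.20 (adjusted p = 1.32e-12). Its response to treatment was 0.50 ± 0.18 (adjusted p = 0.11). The cytosolic RNA sensors Ddx58 (1.04 ± 0.09) and Ifih1 (0.90 ± 0.08), the guanylate-binding protein Gbp3 (1.29 ± 0.12) and the oligoadenylate synthetase family genes Oasl2 (1.56 ± 0.14) and Oas3 (2.79 ± 0.40) were higher than WT vehicle. Oas3, at 0.393 to 0.977 CPM (median 0.501) in treated R6/2, was with Usp18 one of the 2 members higher in treated than in untreated R6/2 (1.22 ± 0.33, adjusted p = 0.0238), a call lost without the 4 libraries (adjusted p = 0.104).

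GAAA followed after 2 bases of any kind by GAAA, the core of the interferon-stimulated response element, was in the RefSeq promoters of 16 of the 23 list genes with an entry (69.6%), on either strand, against 3.99% of all genes in the table and 3.92% of the tested genes. Among them were Ddx58, Ifih1, Gbp3 and Oas3, and Irf7 had no match within this window. The same letters were in none of the fast fibre, glycolysis, titin-linked and cell division promoters and in 1 of 10 promoters of SMAD2/3 targets. Both stretches printed here hold 100 bases before the start on the strand of the gene; in Gbp3 the capitals hold 2 overlapping matches that read on the opposite strand.
Gbp3 (chr3:142559944-142560043, plus strand, matches 45 and 39 bases before the start): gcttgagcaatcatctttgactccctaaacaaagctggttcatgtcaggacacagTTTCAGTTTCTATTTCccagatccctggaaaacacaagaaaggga
Oas3 (chr5:120777680-120777779, minus strand, first capital 75 bases before the start): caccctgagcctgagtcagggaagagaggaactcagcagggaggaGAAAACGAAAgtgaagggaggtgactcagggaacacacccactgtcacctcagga
Gbp3 stood at 1.29 and Oas3 at 2.79 on the log2 scale against WT vehicle, and neither was called in WT mice given ACVR2B/Fc (adjusted p = 0.822 and 0.777).

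Cell division genes remained higher. Of 20 genes 19 were higher and none lower, with a median of 1.98 in treated and 1.69 in untreated R6/2, and 4 did not overlap. Mki67, a marker of cycling cells, had 0.621 to 3.27 CPM (median 1.42) in WT vehicle and 1.32 to 28.3 CPM (median 9.22) in treated R6/2. Its treated libraries were widely spread and 9 of 10 exceeded the WT vehicle range. Its fold change was 2.89 ± 0.52 (adjusted p = 2.01e-05), with 2.81 ± 0.43 for the mitotic kinase Cdk1 and 1.63 ± 0.17 for the replication factor Mcm5. No response to treatment was called among the 20 by edgeR or DESeq2, and 1 had an unadjusted p under 0.05 in edgeR. Pax7, which marks satellite cells, the stem cells of the fibre, was also higher (0.66 ± 0.14, adjusted p = 0.000192).

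Imprinted growth genes, which are expressed from 1 parental copy and are active in growing muscle, were higher in 12 of 17 cases and lower in none (median 0.88). Peg10, a retrotransposon-derived gene, had 1.22 to 3.29 CPM (median 2.47) in WT vehicle and 5.99 to 16.1 CPM (median 11.1) in treated R6/2. The groups did not overlap (log2 fold change 2.24 ± 0.18, adjusted p = 4.33e-13). Mest (1.85 ± 0.27), Ndn (1.32 ± 0.10), Peg3 (1.42 ± 0.18), the growth factor Igf2 (1.13 ± 0.20) and the insulin receptor adaptor Grb10 (0.89 ± 0.07) were higher too. For Grb10 the response to treatment was called and pointed away from WT (0.24 ± 0.06, adjusted p = 0.0212), but not without the 4 libraries (adjusted p = 0.165).

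Ddc and Muc15 were low in WT vehicle and remained high in treated R6/2. Ddc, the aromatic amino acid decarboxylase, had 0.403 to 1.36 CPM (median 0.773) in WT vehicle and 10.5 to 31.1 CPM (median 17.3) in treated R6/2. Treated libraries were all above the WT vehicle range, with a fold change of 4.64 ± 0.27 (adjusted p = 1.12e-16). Muc15, a membrane mucin, had 0 to 0.214 CPM (median 0.0283) in WT vehicle and 1.2 to 10.9 CPM (median 2.06) in treated R6/2. Here too no library overlapped, at 5.99 ± 0.52 (adjusted p = 4.87e-12), and the highest treated value came from replicate 2, which held liver transcripts. Without the 4 libraries the fold change was 6.38.

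Among the genes that became abnormal under treatment was Vsig4 (GRCm38 chrX:96247203-96293438, minus strand), the complement receptor of resident macrophages. It had 0.085 to 0.619 CPM (median 0.214) in WT vehicle and 1.26 to 6.89 CPM (median 3.16) in treated R6/2. All treated libraries exceeded the WT vehicle range, and the untreated R6/2 median was 0.202 CPM. The fold change against WT vehicle was 3.61 ± 0.39 (adjusted p = 6.64e-10), against -0.17 ± 0.41 in untreated R6/2 (adjusted p = 0.782), and the response was 3.79 ± 0.36 (adjusted p = 6.59e-09). WT mice given ACVR2B/Fc had a median of 3.4 CPM and a fold change of 3.46 ± 0.39 against the same controls (adjusted p = 5.05e-07). The responses of R6/2 and WT mice differed by 0.33 ± 0.51 (adjusted p = 0.965).

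Of the 19 macrophage genes tested, 14 were higher and 1, Siglech, lower in treated R6/2 (median 0.63), against 6 higher and none lower in untreated R6/2 (median 0.28). Only 2 of the 19 were called higher and 1 lower between treated and untreated R6/2, so the difference in these counts was for most of the genes not itself called. C1qb, a chain of the first complement component, had 5.03 to 9.44 CPM (median 6.55) in WT vehicle and 8.83 to 17.2 CPM (median 12) in treated R6/2. The ranges touched, with 9 of 10 treated libraries above the WT vehicle range, and the fold change was 0.90 ± 0.16 (adjusted p = 2.02e-05), with a response of 0.43 ± 0.15 (adjusted p = 0.114). C1qa (0.69 ± 0.16) and C1qc (0.63 ± 0.14) were called under treatment and not without it, but their responses were not called (adjusted p = 0.0819 and 0.167). The sialic acid receptor Siglec1 (1.41 ± 0.23) was called in both treated and untreated R6/2. The summed level of the list lay between 151 and 308 CPM in treated R6/2 and between 106 and 193 CPM in WT vehicle. Without the 4 libraries 15 were higher and 1 lower.

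Ccl21a, the chemokine that lymphatic vessels use to draw in cells with CCR7, moved the other way. It had 9.55 to 24 CPM (median 12.2) in WT vehicle and 1.98 to 5.79 CPM (median 3.45) in treated R6/2. Every treated library lay below the WT vehicle range, at a fold change of -1.99 ± 0.22 (adjusted p = 1.09e-09), with a response of -1.78 ± 0.21 (adjusted p = 1.09e-06). In WT mice the response was -1.47 ± 0.22 (adjusted p = 6.17e-05). Closely related copies of this chemokine gene lie side by side in the mouse genome, so the count may be shared among them. Pla2g2d, a secreted phospholipase of lymphoid tissue, was lower as well (-1.29 ± 0.34), with responses of -1.54 ± 0.33 in R6/2 and -2.58 ± 0.37 in WT mice. Of the 15 lymphatic and chemokine genes tested, 3 were higher and 2 lower in treated R6/2 (median 0.16), a smaller share called than the 41.1% of all genes.

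Fabp5, a carrier of fatty acids found in macrophages and endothelium, had 4.7 to 9.94 CPM (median 8.2) in WT vehicle and 13.3 to 31.2 CPM (median 19) in treated R6/2. The groups did not overlap (log2 fold change 1.42 ± 0.18, adjusted p = 3.07e-08), and the untreated R6/2 median was 7.51 CPM. The scavenger receptor Msr1 had 0.538 to 1.37 CPM (median 0.98) in WT vehicle and 1.22 to 3.67 CPM (median 1.97) in treated R6/2. Its ranges overlapped in 1 treated library, with a fold change of 1.25 ± 0.23 (adjusted p = 1.95e-05) and responses of 1.15 ± 0.21 in R6/2 (adjusted p = 0.000693) and 0.89 ± 0.23 in WT (adjusted p = 0.0338). Vwa3a, a protein with von Willebrand factor domains, rose from 0.962 to 2.1 CPM (median 1.48) in WT vehicle to 2.47 to 11.8 CPM (median 3.97) in treated R6/2 without overlap (1.94 ± 0.26, adjusted p = 8.09e-08), and the filamin-binding Fblim1 stood at 1.58 ± 0.23.

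Of 20 blood vessel genes 7 were higher and 2 lower in treated R6/2 (median 0.25), against 2 higher and 2 lower in untreated R6/2 (median 0.02), and on FPKM 18 were higher and none lower in treated R6/2. The 9 called of 20 are a share near the 41.1% of all genes. Between treated and untreated R6/2 3 of the 20 were higher (Eng, Emcn and Cldn5) and none lower. Cdh5, the cadherin of endothelial junctions, had 55.1 to 93.1 CPM (median 61.8) in WT vehicle and 68 to 138 CPM (median 100) in treated R6/2. Of the treated libraries 7 exceeded the WT vehicle range, at a fold change of 0.55 ± 0.12 (adjusted p = 0.000402). Its response to treatment was 0.27 ± 0.12 and was not called (adjusted p = 0.219), and the same held for Pecam1 (0.48 ± 0.11; response 0.34 ± 0.11, adjusted p = 0.0518), whose response was called without the 4 libraries (adjusted p = 0.0294). The peptide apelin (Apln, 2.05 ± 0.27) and its receptor Aplnr (1.35 ± 0.28) were higher in treated and untreated R6/2. The basement membrane collagens Col4a1 (0.60 ± 0.18) and Col4a2 (0.61 ± 0.16) were called under treatment only. Their responses to treatment, 0.36 ± 0.17 and 0.33 ± 0.15, were not called (adjusted p = 0.279 and 0.268).

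In the pathway that the decoy takes aim at, the 18 listed SMAD2/3 targets had 3 genes higher and 7 lower (median -0.29), against 3 and 3 in untreated R6/2 (median 0.02), and on FPKM 6 higher and 2 lower. Among all tested genes 22.6% were higher and 18.5% lower in treated R6/2 with TMM. Pmepa1, which is induced by TGF-β and dampens SMAD signalling, had 13.4 to 26.7 CPM (median 19.9) in WT vehicle and 7.64 to 12.7 CPM (median 8.91) in treated R6/2. The groups did not overlap, at a fold change of -1.07 ± 0.15 (adjusted p = 1.4e-07). Untreated R6/2 stood at -0.36 ± 0.14, and the response of R6/2 was -0.71 ± 0.14 (adjusted p = 0.00163), so Pmepa1 moved further from WT. Of the list, 4 genes were lower in treated than in untreated R6/2 (Pmepa1, Tgfbi, Col1a1 and Postn) and none higher.

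Among the ligands, receptors and binding proteins of the pathway, 3 of 21 were higher and 6 lower in treated R6/2 (median -0.11), and on FPKM 12 were higher and 3 lower. The counts were 3 and 6 in untreated R6/2 as well, and 9 called of 21 is near the 41.1% of all genes. Fst, or follistatin, which binds activins and myostatin, had 5.49 to 10.1 CPM (median 7.28) in WT vehicle and 2.24 to 3.64 CPM (median 3) in treated R6/2. All treated libraries lay below the WT vehicle range, with a fold change of -1.36 ± 0.14 (adjusted p = 2.94e-10) against -0.42 ± 0.14 in untreated R6/2. The response was -0.94 ± 0.14 in R6/2 and -0.94 ± 0.14 in WT mice (adjusted p = 3.52e-05 and 7.78e-05). The ligand gene Gdf11 was called under treatment only (0.49 ± 0.12, response 0.50 ± 0.12, adjusted p = 0.00857), Smad3 was lower in both R6/2 groups (-1.03 ± 0.10 under treatment), and the inhibin subunit Inha was lower (-0.90 ± 0.16) without a called response.

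The receptor gene itself, Acvr2b, had a fold change of -0.11 ± 0.14 with an interval of -0.39 to 0.16 (adjusted p = 0.546). For myostatin (Mstn) the fold change was -0.21 ± 0.12 with an interval of -0.45 to 0.03 (adjusted p = 0.166), after -0.50 ± 0.12 in untreated R6/2 (adjusted p = 0.000802). Mstn was lower in treated R6/2 by the same test without the 4 libraries (-0.33, adjusted p = 0.0436), but on FPKM it was called higher (0.30, limma adjusted p = 0.0189), as was Acvr2b (0.24, limma adjusted p = 0.0164). Of the BMP targets, 5 of 11 were higher and 2 lower, against 22.6% and 18.5% of all tested genes, and on FPKM 8 were higher and none lower. Id2, an inhibitor of helix-loop-helix factors, had 2.58 to 4.4 CPM (median 3.13) in WT vehicle and 4.81 to 7.89 CPM (median 6.7) in treated R6/2. No treated library fell within the WT vehicle range, at a fold change of 1.0 ± 0.13 (adjusted p = 3.8e-08) and a response of 0.44 ± 0.12 (adjusted p = 0.026). Smad9, a SMAD of the BMP branch, stood at 1.84 ± 0.23 with a response of 0.84 ± 0.21 in R6/2 and 0.96 ± 0.23 in WT mice, and Id3 at 0.75 ± 0.13.

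**Figure D4:**
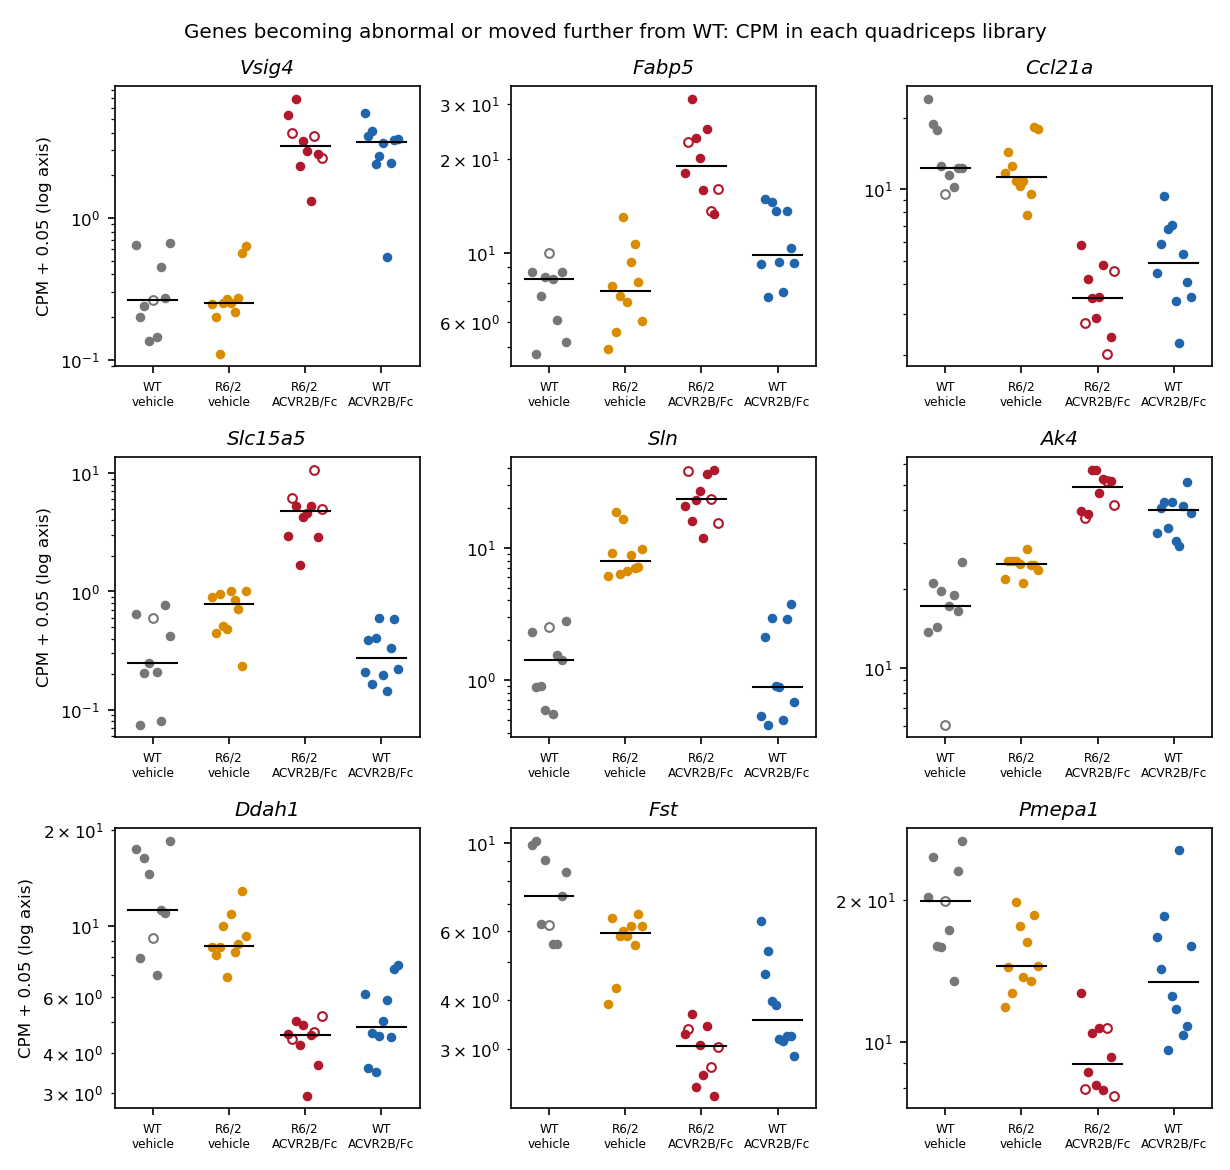
CPM in each quadriceps library (log axis) for 9 genes that became abnormal under treatment or moved further from WT, by group; each point is a library, the bar is the group median and open points are the 4 libraries with transcripts of another tissue. Treated R6/2 libraries lie apart from WT vehicle in every panel, and in Slc15a5 the WT ACVR2B/Fc libraries lie with WT vehicle.

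Slc15a5 (GRCm38 chr6:137983586-138079916, minus strand), a member of the peptide transporter family, showed the largest response among genes that moved further from WT. It had 0.0251 to 0.725 CPM (median 0.198) in WT vehicle and 1.62 to 10.6 CPM (median 4.7) in treated R6/2. All treated libraries exceeded the WT vehicle range, and the highest came from replicate 8, which held liver transcripts. The medians were 0.731 CPM in untreated R6/2 and 0.226 CPM in WT ACVR2B/Fc. Against WT vehicle the fold change was 1.08 ± 0.40 in untreated R6/2 and 3.95 ± 0.41 in treated R6/2 (adjusted p = 0.0279 and 3.42e-10). The response was 2.86 ± 0.36 in R6/2 and -0.17 ± 0.44 in WT mice, and the difference of these responses, 3.04 ± 0.56, was called (adjusted p = 0.0326). Slc15a5 was 1 of 2 genes called in that test of genotype by treatment, which was added after the values had been seen, and 1395 genes had an unadjusted p under 0.05 there. Without the 4 libraries its adjusted p was 0.211, and 4 genes were called. In TA the response of Slc15a5 was 2.93 in R6/2 and 1.66 in WT mice, called in both (edgeR adjusted p = 6.6e-06 and 0.0253). There the difference of the responses, 1.27, was not called (adjusted p = 0.525).

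Sln, or sarcolipin, which uncouples the calcium pump of the fibre and is scarce in adult fast muscle of the mouse, had 0.507 to 2.72 CPM (median 1.36) in WT vehicle and 11.8 to 38.8 CPM (median 23.1) in treated R6/2. No library overlapped, and the untreated R6/2 median was 7.91 CPM. The fold change was 4.11 ± 0.39 (adjusted p = 3.6e-11) and the response 1.38 ± 0.32 (adjusted p = 0.00609), against 0.07 ± 0.39 in WT mice. Fgd3, an activator of the small GTPase Cdc42, had 0.482 to 1.79 CPM (median 1.17) in WT vehicle and 3.67 to 10.1 CPM (median 6.07) in treated R6/2. Its groups were apart too, at 2.48 ± 0.25 (adjusted p = 1.13e-10) with a response of 0.97 ± 0.22 (adjusted p = 0.00498), and the predicted gene Gm830 stood at 4.66 ± 0.37 with a response of 1.35 ± 0.29. The response of Gm830 in WT mice was 1.16 ± 0.38 (adjusted p = 0.125). Between the genotypes the difference of the responses was not called for Sln, Fgd3 or Gm830 (edgeR adjusted p = 0.591, 0.622 and 0.987).

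For a second set of genes the response was called in WT mice as well. Ak4, a mitochondrial adenylate kinase, had 6.01 to 25.4 CPM (median 17.2) in WT vehicle and 37.3 to 57.1 CPM (median 49.1) in treated R6/2. The ranges did not touch, at 1.48 ± 0.14 (adjusted p = 5.17e-11) against 0.54 ± 0.14 in untreated R6/2, and the response was 0.95 ± 0.14 in R6/2 and 1.18 ± 0.14 in WT mice. Ddah1, which breaks down an inhibitor of nitric oxide synthase, had 6.97 to 18.4 CPM (median 11.2) in WT vehicle and 2.89 to 5.16 CPM (median 4.51) in treated R6/2. Every treated library lay below the WT vehicle range (-1.52 ± 0.16, adjusted p = 4.66e-10), with responses of -1.07 ± 0.16 in R6/2 and -1.26 ± 0.16 in WT mice. Gm11716 (-1.39 ± 0.12), the uridine phosphorylase Upp1 (1.91 ± 0.27) and the phosphatase Ptprr (-1.52 ± 0.22) followed, and the response of the last 2 was not called without the 4 libraries (adjusted p = 0.0621 and 0.0656). In all, 25 of the 86 genes that moved further were also called in WT mice, where ACVR2B/Fc changed 247 genes (1.25% of those tested). The WT response and the fold changes that define the 86 genes rest on the same WT vehicle libraries. This count is therefore a description, not independent evidence of a shared response.

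Igfn1, an immunoglobulin and fibronectin domain protein of the sarcomere, had 20 to 123 CPM (median 50.1) in WT vehicle and 1.12 to 10.7 CPM (median 3.15) in treated R6/2. All treated libraries lay below the WT vehicle range, at -3.69 ± 0.42 (adjusted p = 3.25e-09), and untreated R6/2 stood at -2.28 ± 0.40. The response of -1.41 ± 0.39 (adjusted p = 0.0264) was not called without the 4 libraries (adjusted p = 0.134).

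Among genes that treatment moved toward WT without reaching it was Kcng4, a modifier subunit of potassium channels. It had 13.1 to 56.4 CPM (median 23.2) in WT vehicle and 6.07 to 15 CPM (median 8.93) in treated R6/2. Of the treated libraries 9 lay below the WT vehicle range, and untreated R6/2 had a median of 3.76 CPM. Kcng4 stood at -1.43 ± 0.21 under treatment and -2.70 ± 0.22 without it, with a response of 1.27 ± 0.21 (adjusted p = 0.000152) against 0.15 ± 0.20 in WT mice. The difference of these responses was not called (adjusted p = 0.209). Fam57b, a membrane protein, rose from -3.24 ± 0.13 to -2.29 ± 0.12 relative to WT vehicle, and its response differed from that of WT mice by 0.92 ± 0.17 (adjusted p = 0.0326, and 0.0201 without the 4 libraries). The phosphatase inhibitor Ppp1r1a (-0.65 ± 0.13, response 0.84 ± 0.13) moved likewise, while the response of cardiac actin Actc1 (-1.11 ± 0.30, response 0.97 ± 0.29) was not called without the 4 libraries (adjusted p = 0.0589).

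BC048679, a gene with no named function in the files, was among those no longer called. It had 1.28 to 4.03 CPM (median 3.01) in WT vehicle and 0.651 to 2.9 CPM (median 1.79) in treated R6/2. The groups overlapped, with 2 treated libraries below the WT vehicle range, and the untreated R6/2 median was 0.461 CPM. The fold change was -0.57 ± 0.30 with an interval of -1.17 to 0.04 (adjusted p = 0.134), so a remaining reduction beyond 1.5-fold was within the error. The response was 2.12 ± 0.32 (adjusted p = 5.35e-05). Bdnf, a neurotrophin, had 0.539 to 1.68 CPM (median 1.2) in WT vehicle and 1.26 to 2.41 CPM (median 1.58) in treated R6/2. The ranges overlapped, with 4 treated libraries above the WT vehicle range, at 0.40 ± 0.20 (adjusted p = 0.102) after -0.76 ± 0.20 in untreated R6/2, with a response of 1.16 ± 0.19 in R6/2 and 0.82 ± 0.20 in WT mice. The cadherin Cdh4 went from -0.99 ± 0.26 to 0.33 ± 0.26 (adjusted p = 0.319).

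Slitrk4, a neuronal adhesion protein, had 0.1 to 1.48 CPM (median 0.434) in WT vehicle and 0.283 to 0.661 CPM (median 0.51) in treated R6/2. The treated libraries overlapped those of WT vehicle, and the untreated R6/2 median was 1.96 CPM. Its fold change went from 1.73 ± 0.32 to -0.25 ± 0.32 (adjusted p = 0.57), with an interval of -0.90 to 0.40 under treatment. Igfbp3, which carries insulin-like growth factors, had 13.4 to 22.3 CPM (median 16) in WT vehicle and 8.68 to 22.3 CPM (median 12) in treated R6/2. Of the treated libraries 6 lay below and 1 above the WT vehicle range. It was not called (-0.30 ± 0.13, adjusted p = 0.0666) but was lower without the 4 libraries (-0.37, adjusted p = 0.0241).

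Tendon and cartilage genes formed a group that was high in untreated R6/2 and not under treatment. In untreated R6/2 10 of 18 were higher and 1 lower (median 0.52), and under treatment 2 were higher and 4 lower (median -0.22), or 2 higher and 1 lower on FPKM (median 0.08). The share called under treatment was smaller than the 41.1% of all genes. Between treated and untreated R6/2, 10 were lower and 1 higher. Their summed level lay between 299 and 618 CPM in untreated R6/2, between 194 and 544 CPM in treated R6/2 and between 239 and 689.6 CPM in WT vehicle. These sums overlapped among the 3 groups, and without the 4 libraries 2 of the 18 genes were lower in treated R6/2. How much tendon came with each muscle was not tested.

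Scx, the transcription factor that specifies tendon, had 1.36 to 2.37 CPM (median 1.7) in WT vehicle and 0.621 to 1.41 CPM (median 0.996) in treated R6/2. Of the treated libraries 9 lay below the WT vehicle range, at a fold change of -0.88 ± 0.15 (adjusted p = 9.95e-06) against 0.20 ± 0.15 in untreated R6/2, and the response was -1.08 ± 0.15 in R6/2 and -0.56 ± 0.15 in WT mice (adjusted p = 1.21e-05 and 0.0562). Thrombospondin Thbs4 stood at -0.61 ± 0.19 and its response was lost without the 4 libraries (adjusted p = 0.166). The cartilage collagen Col2a1 was not called under treatment (-0.18 ± 0.29, adjusted p = 0.657) after 1.09 ± 0.29 in untreated R6/2, and the cartilage factor Sox9 remained higher (1.03 ± 0.22).

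Of 27 collagens and matrix genes, 10 were higher and 2 lower in untreated R6/2 (median 0.34), and 5 higher and 3 lower under treatment (median 0.02), where on FPKM 16 were higher and none lower. With TMM the share called under treatment was smaller than the 41.1% of all genes. Col1a1, the main fibrillar collagen chain, had 81.8 to 174 CPM (median 130.9) in WT vehicle and 63.4 to 217 CPM (median 132) in treated R6/2. The groups overlapped, at 0.07 ± 0.22 with an interval of -0.39 to 0.52 (adjusted p = 0.846). Its response of -0.72 ± 0.22 (adjusted p = 0.0465) was not called without the 4 libraries (adjusted p = 0.231).

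The 7 genes called in opposite directions in untreated and treated R6/2 were Tbc1d16, Ripor2, 1700001O22Rik, Itga10, 6330403L08Rik, Fxyd6 and Zdhhc3, of which 3 held this call without the 4 libraries. Fxyd6, a regulator of the sodium pump, had 23.8 to 64.7 CPM (median 39.3) in WT vehicle and 23.3 to 41.6 CPM (median 28.6) in treated R6/2. The ranges overlapped in 9 of 10 treated libraries, and the highest was replicate 4. The fold change was 0.45 ± 0.12 in untreated and -0.51 ± 0.12 in treated R6/2 (adjusted p = 0.0031 and 0.000858), though it stood just above 0 on the FPKM scale. The response of Fxyd6 was -0.96 ± 0.12 in R6/2 and -0.94 ± 0.13 in WT mice. 1700001O22Rik went from -0.93 ± 0.34 to 1.84 ± 0.32, and Tbc1d16, a GTPase-activating protein, from -0.24 ± 0.08 to 0.35 ± 0.08. Ripor2, a regulator of the small GTPase RhoA, went from -0.52 ± 0.16 to 0.48 ± 0.16, and its call under treatment was lost without the 4 libraries (adjusted p = 0.16).

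The study had picked quadriceps genes from these same libraries that were altered in untreated R6/2 and also changed by ACVR2B/Fc in R6/2. Neither their direction in untreated R6/2 nor their response is therefore independent evidence. Between treated and untreated R6/2, 37 of the 38 tested high genes and all 33 low genes were called, against 4.56% of all genes. The counts below thus do not stand for R6/2-altered genes at large. Of 38 such genes that were high, 17 were higher in treated R6/2 (16 of them called higher in untreated R6/2 too), 2 were lower and 19 were not called. Of 33 that were low, 12 were lower, 4 were higher and 17 were not called, and on FPKM 15 were higher and 10 lower. The human transgene was not analysed here, and mouse Htt stood at 0.15 ± 0.08 with an interval of -0.01 to 0.31 (adjusted p = 0.141).

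Transcripts known from liver were called as well. Of 15 liver genes 12 were higher in treated R6/2, and none in TA. Alb, or albumin, had 0 to 0.641 CPM (median 0.127) in WT vehicle and 0 to 740.3 CPM (median 0.0604) in treated R6/2. No treated library lay below the WT vehicle range and 3 lay above it. Without the 4 libraries 4 of the 15 genes were higher. Of other cell types, the B, T and granulocyte list had 2 higher and 1 lower of 17. The Schwann cell list had 1 higher and 6 lower of 16, but 2 and 2 without the 4 libraries and 5 and 0 on FPKM. The adipocyte list had 4 lower of 16, also without the 4 libraries, and 2 higher and 1 lower on FPKM. With all libraries and TMM, the share called was near the 41.1% of all genes in the Schwann cell list. It was smaller in the B, T and granulocyte list and in the adipocyte list.

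In TA, treated R6/2 differed from WT vehicle in 8132 genes (41.3%). The fold change against WT vehicle was compared between the muscles of the same 19 mice, with the mouse as a block, and differed in 298 genes (1.51%), 180 with the higher value in quadriceps and 118 with the lower. Of these 298, 159 were called in both muscles and 150 of them in the same direction. Of the 6383 quadriceps genes remaining abnormal, 5090 were called in the same direction in TA, against 667 of the 1713 becoming abnormal. Over all genes the share called in TA, in either direction, was the 41.3% given above. The classes also differed in level, with a mean of at least 1 CPM in 5444 of the 6383 and 1045 of the 1713. Their call rates in TA are thus not compared at equal power.

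For most of the genes described above the difference between the muscles was not called. Inha fell further in TA (-2.56 ± 0.20) than in quadriceps, with a difference, quadriceps minus TA, of 1.66 ± 0.19 (adjusted p = 2.31e-05), and Kcnab1 fell further in quadriceps (-2.08 ± 0.18 in TA, difference -1.34 ± 0.23, adjusted p = 0.00339). 2310065F04Rik (-5.24 ± 0.17 in TA, difference 0.59 ± 0.10, adjusted p = 0.00392), Ampd1 (-2.44 ± 0.11, difference 0.58 ± 0.11) and Fam57b (-3.15 ± 0.16, difference 0.91 ± 0.14) were lower in both muscles and further so in TA. Ampd3 stood at 2.22 ± 0.16 in TA, higher than in quadriceps by the test (difference -0.83 ± 0.12, adjusted p = 0.000811).

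Macrophage and endothelial lists had other counts in TA. There 4 macrophage genes were higher and 1 lower, against 14 and 1 in quadriceps, and 3 endothelial genes were higher and 8 lower, against 7 and 2. The difference between muscles was called for 0 of 19 macrophage genes (4 at an unadjusted p under 0.05, edgeR) and 5 of 20 endothelial genes. Vsig4 was higher in TA too (3.32 ± 0.53, adjusted p = 1.82e-06; difference 0.37 ± 0.53, adjusted p = 0.776), as were Slc15a5 (4.42 ± 0.43) and Sln (5.21 ± 0.39). Ccl21a (-1.87 ± 0.34) and Fst (-0.91 ± 0.19) were lower in TA as in quadriceps. Mstn was higher in TA (0.38 ± 0.11, adjusted p = 0.00505), and its difference between the muscles was called (-0.55 ± 0.12, adjusted p = 0.0249).

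**Figure D5:**
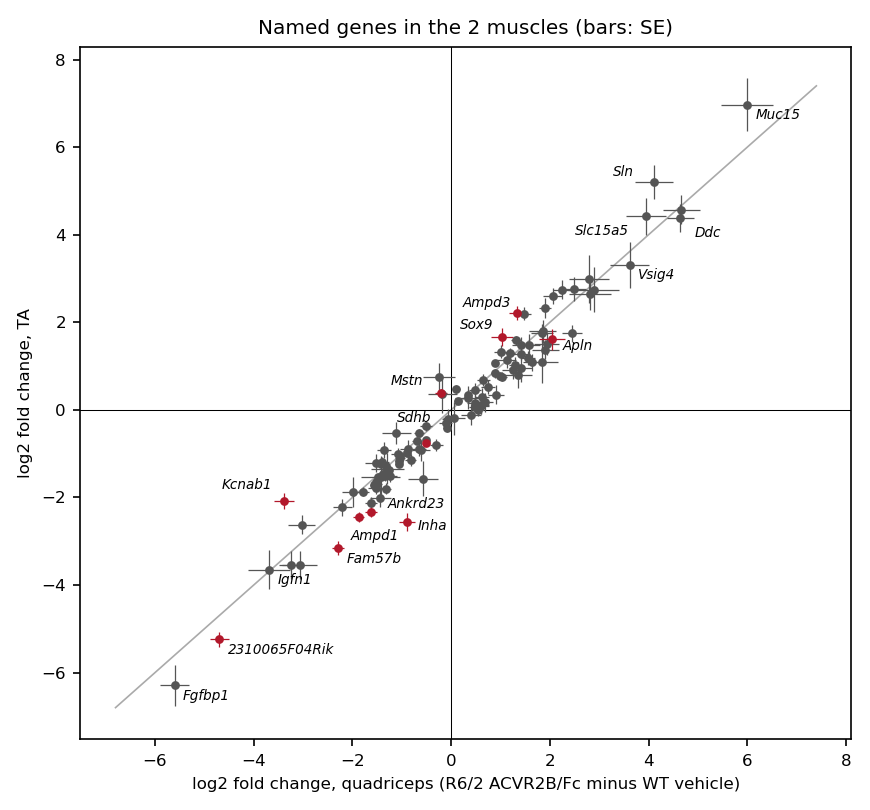
Log2 fold change of treated R6/2 against WT vehicle in TA (vertical axis) and in quadriceps (horizontal axis) for the genes described in the text; bars are SE, the diagonal marks equal change and red marks genes whose fold change differed between the muscles. Fgfbp1 lies lowest on both axes, and Inha and Kcnab1 lie apart from the diagonal.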

How the data were processed

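RNA-seq was done on total RNA (miRNeasy) of quadriceps and TA. Per the labels and the study's methods, the authors used CASAVA 1.8.2 and aligned and counted with OSA in Omicsoft (mouse B38, Ensembl R75), and deposited estimated counts per gene and FPKM values, the latter divided by library total and gene length. Both tables hold 39179 genes, and 29.4% of the deposited counts above 0 were not whole; they were rounded to whole numbers. Gene IDs were matched to symbols with GENCODE vM21 (37607 IDs).

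A gene entered the tests if 10 or more of the 79 libraries held 2 or more of its counts. Tests were run with the edgeR 4.0.16 quasi-likelihood test in R 4.3.3, on TMM scaling, over the 4 quadriceps groups together, and p-values were adjusted by Benjamini-Hochberg over 19702 genes. The SE was derived from each fold change and its F statistic. Replicates were separate mice. The same fit was run in TA, and the muscles were compared with the mouse as a block over 38 libraries of 19 mice. The 4 libraries holding transcripts of another tissue were those with a liver, pituitary or skin list at 10 CPM or more and over 10 times the median of the quadriceps libraries. These CPM were taken without the TMM factor. Alternatives were DESeq2 1.42.0, RLE scaling, other filters, counts rounded up, 2 groups only, the library of mouse 93 kept in, lane with part (the labels' lane numbers, and the first or second round of them, inferred from library numbers), the replicate number as a block, limma 3.58.1 on log2 of FPKM plus a pseudocount of 1 or 0.1, a fold over 1.5, and leaving out each library.

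The comparison, its members and the 55 gene lists (1117 entries) were chosen with earlier results of these data known. Named genes had a mean of at least 1 CPM, except the genes the study shows and Mstn, Acvr2b, Pax7 and Htt, which had no minimum. They were the 12 highest and 12 lowest called genes, the 10 with the largest treatment response per class, the 6 highest and 6 lowest of the genes becoming abnormal, the 5 genes of smallest and 2 of largest p per list, the quadriceps genes the study shows, and Mstn, Acvr2b, Pax7 and Htt. From these the text describes a selection made after the values were seen. Fits were tested on simulated counts. RefSeq promoters of GRCm38.p6 (32851 promoters) were searched for 13 strings on both strands. Scripts used Python 3.11.15, pandas 2.3.3, numpy 2.4.6, scipy 1.17.1 and matplotlib 3.10.9.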

Additional observations from a re-analysis of the deposited data

Results flagged for a closer look

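In groups of 9 or 10 libraries, the highest value stood apart from the next by Dixon's test in 11 of 80 tests over 40 genes, and chance gives about 1 in 20. In WT vehicle, replicate 5 was highest for Ckm (15494 CPM, next 11899), Actn3 (9040 CPM, next 6768) and Kcng4 (56.4 CPM, next 30.1). WT vehicle replicate 6, which held hair follicle and skin transcripts, was highest for Musk (16.2 CPM, next 8.59) and Muc15 (0.214 CPM, next 0.0928). Replicate 3 was highest for Igfn1 (123 CPM, next 71) and replicate 2 for Ddc (1.36 CPM, next 0.885).

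In R6/2 ACVR2B/Fc, replicate 8, which held liver transcripts, was highest for Slc15a5 (10.6 CPM, next 6.15) and Bdnf (2.41 CPM, next 1.79). Replicate 2, which held them too, was highest for Muc15 (10.9 CPM, next 4.63), and replicate 4 for Fxyd6 (41.6 CPM, next 32.4). The part of these single libraries in the fold changes was measured by leaving each out.

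The fold change of treated R6/2 against WT vehicle differed between the muscles for 2310065F04Rik, by 0.588 on the log2 scale (quadriceps minus TA; edgeR adjusted p = 0.00392), and for Sdhb by 0.253 (adjusted p = 0.0479). The response of Slc15a5 to ACVR2B/Fc was larger in R6/2 than in WT quadriceps by 3.04 on the log2 scale (edgeR adjusted p = 0.0326). This was not called without the 4 libraries (adjusted p = 0.211) or in TA (adjusted p = 0.525).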

How the results depend on the processing

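The count of 8103 called genes was 8062 with DESeq2, 8067 with RLE scaling, 7513 with the 2 groups only, 7072 with lane and part as covariates and 7597 without the 4 libraries that held liver, pituitary or skin transcripts. On FPKM it was 12432 (pseudocount 1) and 12612 (0.1), and 3422 genes passed with a fold over 1.5. The replicate numbers of the groups did not pair the mice (correlations of -0.0822 to 0.158 in 9 pairs), and with the replicate number as a block 7975 genes were called.

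Genes remaining abnormal numbered 11477 and 11621 on FPKM with pseudocounts of 1 and 0.1, and 2284 with a fold over 1.5. Genes becoming abnormal numbered 1089 with at least 1 CPM, 945 and 980 on FPKM, and 1137 with a fold over 1.5. With a called response they numbered 170 with at least 1 CPM, 86 with lane and part, 183 and 156 on FPKM, and 120 without the 4 libraries. Genes moved further numbered 130 with DESeq2, 14 with lane and part, 132 on FPKM with a pseudocount of 1, 53 without the 4 libraries and 27 with a fold over 1.5. Those moved toward WT numbered 72 with lane and part, 1735 and 1378 on FPKM, 90 without the 4 libraries and 24 with a fold over 1.5. Those no longer called numbered 955 with a fold over 1.5, and with a called response 53 with lane and part, 464 and 354 on FPKM, 103 without the 4 libraries and 71 with a fold over 1.5. Opposite calls numbered 11 with DESeq2, 3 with lane and part, 11 on FPKM with a pseudocount of 0.1, 4 without the 4 libraries and 1 with a fold over 1.5. Without the mouse as a block 33 genes differed between the muscles, against 298. The cause of these changes was not tested.

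Leaving out each library in turn gave 7748 to 8173 called genes, 6073 to 6454 remaining, 1526 to 1790 becoming abnormal (265 to 372 with a called response), 1639 to 1884 no longer called (166 to 207 with one), 132 to 192 moved toward WT, 0.698 (60 genes, without R6/2 ACVR2B/Fc replicate 2) to 1.21 times the 86 moved further (without replicate 10) and 6 to 11 opposite, the last without R6/2 ACVR2B/Fc replicate 3.

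Of the 118 genes followed, 115 kept their direction and call with DESeq2, 118 with RLE scaling, 117 with the replicate block and 98 and 100 on FPKM. On FPKM (pseudocounts 1 and 0.1) the fold change turned to 0.015 and 0.019 for Fxyd6, 0.13 and 0.15 for Igfbp3, 0.027 and 0.19 for Slitrk4, 0.40 and 0.40 for Gys1, 0.30 and 0.31 for Mstn, 0.24 and 0.39 for Acvr2b, 0.032 and 0.19 for Col2a1 and 0.43 and 0.44 for Flnc. Flnc stood at 0.086 without the 4 libraries, and Col1a1 at -0.036 with lane and part. Leaving out single libraries, Flnc ranged from -0.13 to 0.040 (the latter without WT vehicle replicate 6), Slitrk4 from -0.40 to 0.051 (replicate 10), Col2a1 from -0.27 to 0.021 (replicate 8) and Col1a1 from -0.030 (R6/2 ACVR2B/Fc replicate 1) to 0.15.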

Other observations

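Several lists not described above were counted in treated R6/2 quadriceps against WT vehicle, where 22.6% of all tested genes were higher and 18.5% lower. Mitochondrial ribosomal proteins had 22 of 30 genes lower and 1 higher with a median of -0.26, and on FPKM 21 were higher and none lower. Of the huntingtin and partners list, 7 of 14 were higher and 2 lower (median 0.29), and of the p53 targets 8 of 16 were higher and 5 lower (median 0.29), with 5 and 4 without the 4 libraries and 11 and 0 on FPKM. Of 18 atrophy ligase and FOXO genes 8 were higher and 3 lower, with 8 and 3 in TA, and a response to treatment in R6/2 quadriceps was called for none by edgeR or DESeq2 (1 at an unadjusted p under 0.05 in edgeR).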
